A study of Mus musculus with 72 samples.

Results

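Kidney cortex of Balb/c mice carrying an absorbed dose of 0.3 Gy from 177Lu was compared with control kidney cortex, both at 3 months. The comparison used 6 of the 72 arrays of the series, 3 exposed and 3 control, chosen by their titles. It covered 8077 of the 16593 genes on the array. These were the genes whose probe, the most intense of the gene's probes on average over the 72 arrays, reached an intensity of 150 on all 3 arrays of either group; the other 8516 genes were not tested.

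The series measured RNA levels in kidney cortex and medulla on Illumina MouseRef-8 expression arrays, in controls and after absorbed doses of 0.3, 3 or 10 Gy, at 1.5, 3 and 4.5 months, with 3 arrays per group. 177Lu is a beta-emitting radionuclide given in targeted tumour therapy, in which the kidney is an organ at risk. The labels name lutetium as the nuclide for the controls too, but give no absorbed dose for them. They name no carrier molecule and no other agent, and give neither the age nor the sex of the mice. Nor do they tie the 3 samples of a group to different animals, so the p-values measure the spread between samples, which may be technical.

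The renal cortex consists largely of proximal tubules, which draw much of their energy from the oxidation of fatty acids. PPAR alpha, a nuclear receptor that binds fatty acids, drives the genes for their uptake into mitochondria, their oxidation and the omega-hydroxylases of the Cyp4a family. Heat shock chaperones refold damaged proteins, and heat shock factor 1 drives their genes by binding inverted repeats of the letters GAA in their promoters.

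Intensities were deposited on a linear scale, already normalised, with array medians between 143.4 and 143.9 and a lowest value of 95.3. All values here are log2 intensities, and a difference is exposed minus control in log2 units, given with its standard error. The number of arrays limits the precision, and the median standard error of a difference was 0.12. The cortex label was checked against markers. Slc14a2, a urea transporter gene that marks the inner medulla, read 6.78 to 8.44 on the 6 cortex arrays and 10.72 to 11.59 on the medulla arrays of the same groups. Proximal tubule markers were mixed. Slc5a2, the glucose transporter of the early proximal tubule, read 9.67 to 10.36 in cortex and 8.42 to 9.31 in medulla. Slc22a6 read 12.29 to 12.83 and 10.9 to 11.93. The phosphate transporter gene Slc34a1 was at a similar level in both, and Lrp2 read 7.33 to 7.59 in cortex and 7.49 to 7.91 in medulla. These Lrp2 values lie close to the intensity floor of 150. Summed over 8 such markers, the log2 level was 15.58 to 15.79 in cortex controls and 15.98 to 16.05 in medulla controls, so the set was not higher in cortex. A cortex control array of 1.5 months (replicate 3) stood apart from the rest, with a mean correlation of 0.632 with the other cortex arrays against at least 0.961 for every other cortex array. It belongs to neither group compared here, but it entered the estimate of spread when all 36 cortex arrays were fitted, so the main fit left it out.

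At 0.3 Gy, Cyp4a14, which encodes a fatty acid omega-hydroxylase, fell, and Chordc1, which encodes a co-chaperone of HSP90, rose. These 2 of 8077 genes (0.0248%) passed an adjusted p of 0.05 in limma with Benjamini-Hochberg adjustment, 0.0124% in each direction. An unadjusted p under 0.05 was found for 504 genes (6.24%), of which 179 (2.22%) were higher and 325 (4.02%) lower. The differences of all genes centred on -0.0018, the middle of their distribution ran from -0.09 to 0.08 (25th to 75th percentile), and 13 genes differed by 1 log2 unit or more. The exposed and control arrays did not overlap for 801 genes (9.92%), of which 367 (4.54%) were higher and 434 (5.37%) lower in the exposed cortex. In whole tissue, fewer cells of a type and less RNA per cell cannot be told apart.

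Cyp4a14 read 13.60, 13.67 and 14.23 in the controls and 13.12, 13.15 and 12.96 in the exposed cortex. Every exposed array lay below every control array, and control replicate 3 was the highest of the 6. The difference was -0.76 ± 0.13, an intensity ratio of 0.592, with an adjusted p of 0.0140 (limma). Without control replicate 3 the difference was -0.56 with an adjusted p of 0.179, and without exposed replicate 3 it was -0.70 with an adjusted p of 0.113. With all 36 cortex arrays in the fit, or with only the 6 arrays compared, neither gene passed.

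Of 29 genes of fatty acid oxidation and PPAR alpha targets above the floor, 1 passed, lower (Cyp4a14), and 0 passed higher. The difference was below 0 for 23 of them and above 0 for 6, with a median of -0.18 beside -0.0018 for all genes. With single arrays left out the median ran from -0.17 (without exposed replicate 3) to -0.27 (without exposed replicate 2). In 11 of the 29 every exposed array lay below every control array, against 5.37% of all genes, and in 0 every exposed array lay above. Acot1, a cytosolic acyl-CoA thioesterase, came closest to the threshold after Cyp4a14. It read 12.73, 12.83 and 12.95 in the controls and 11.94, 12.24 and 11.92 in the exposed cortex. The groups did not overlap, and the difference was -0.80 ± 0.16 with an adjusted p of 0.0730. A further probe of Acot1 gave -0.85. Acot1 has close paralogs, as do Cyp4a12a and Cyp4a12b, and the probes may not separate them.

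Pdk4, the kinase that shuts pyruvate dehydrogenase when fatty acids are burned, had the most negative difference of the list, -1.35 ± 0.37, but did not pass (adjusted p 0.213). It read 10.38, 11.21 and 11.30 in the controls and 8.99, 9.29 and 10.57 in the exposed cortex. Exposed replicate 3 lay within the range of the controls and the other exposed arrays lay below it. Genes of the carnitine shuttle, which carries fatty acids into mitochondria, were lower on every exposed array without passing. For Slc25a20, the carnitine-acylcarnitine carrier, the difference was -0.49, for Cpt2 it was -0.37 and for Cpt1a -0.32. The peroxisomal thiolase Acaa1b (-0.48) and the enoyl-CoA isomerases Eci1 (-0.38) and Eci2 (-0.27) also had groups that did not overlap, with adjusted p-values between 0.451 and 0.861. Angptl4, a secreted lipase inhibitor, differed by -0.63 with overlapping groups. The gene of the receptor itself, Ppara, differed by -0.45 ± 0.22 with overlapping groups. Fabp3, Plin2, Acaa2, Acot3, Hadhb and Ppargc1a were the 6 members with a difference above 0, at most 0.25. Pex11a, which promotes peroxisome division and was not on the list, read 11.31, 11.19 and 11.32 in the controls and 10.72, 10.71 and 10.78 in the exposed cortex. The gap between the groups was wider than the range of either, but the difference of -0.54 ± 0.13 had an adjusted p of 0.145. Its other probes gave -0.52 and -0.40.

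**Figure D1:**
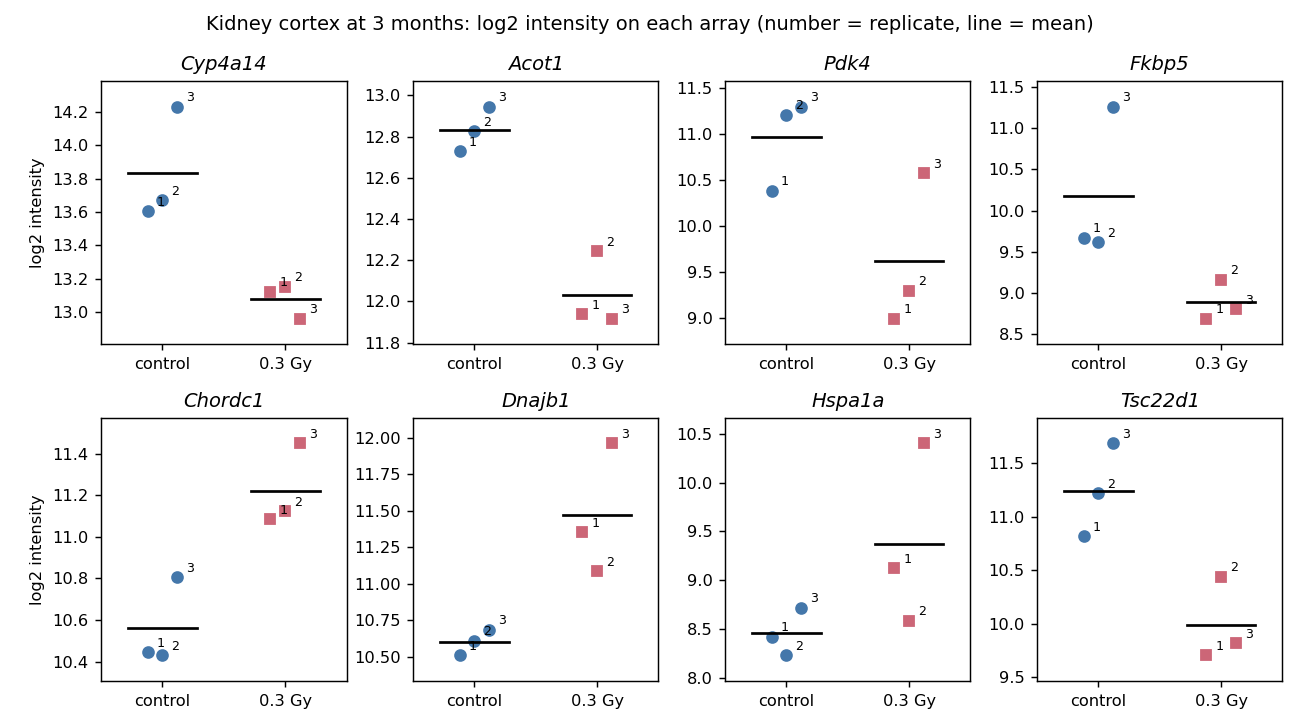
Log2 intensity of 8 genes on the 3 control arrays (blue circles) and the 3 exposed arrays (red squares) of cortex at 3 months, with the replicate number beside each point and a black line at each mean; each panel has its own vertical axis, which does not start at 0. Cyp4a14, Acot1, Fkbp5 and Tsc22d1 are lower on all 3 exposed arrays and Chordc1 and Dnajb1 higher, whereas the groups overlap for Pdk4 and Hspa1a.

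Chordc1 read 10.45, 10.43 and 10.81 in the controls and 11.09, 11.12 and 11.45 in the exposed cortex. The groups did not overlap, and replicate 3 was the highest of its group on both sides. The difference was 0.66 ± 0.12, an intensity ratio of 1.58, with an adjusted p of 0.0201 (limma). Leaving out control replicate 1, control replicate 2 or exposed replicate 3 raised the adjusted p to 0.0711, 0.125 and 0.310, with differences of 0.60, 0.59 and 0.54.

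Of 23 heat shock chaperone genes above the floor, 1 passed, higher (Chordc1), and 0 passed lower. The difference was above 0 for 22 of the 23, with a median of 0.22 beside -0.0018 for all genes. In 6 of the 23 every exposed array lay above every control array, against 4.54% of all genes. These were Cryab, Dnajb1, Chordc1, Ahsa1, Dnaja1 and Stip1. Dnajb1, an HSP40 that starts the HSP70 cycle, read 10.51, 10.61 and 10.69 in the controls and 11.36, 11.09 and 11.96 in the exposed cortex. All 3 exposed arrays lay above the controls, with exposed replicate 3 the highest, and the difference was 0.87 ± 0.19 with an adjusted p of 0.0932. Cryab, the small heat shock protein alpha B-crystallin, had the largest difference of all 8077 genes, 1.47 ± 0.62, but a wide spread. It read 8.80, 8.32 and 8.13 in the controls and 10.21, 8.95 and 10.50 in the exposed cortex, with an adjusted p of 0.627.

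Hspa1a, an inducible HSP70 whose probe may also bind the near-identical Hspa1b, read 8.42, 8.23 and 8.72 in the controls and 9.12, 8.58 and 10.40 in the exposed cortex. Exposed replicate 2 lay within the range of the controls, and exposed replicate 3 stood far above the rest. The difference was 0.91 ± 0.37 with an adjusted p of 0.597. Hspb1, another small heat shock protein, differed by 0.58 and Hsph1, the nucleotide exchange factor HSP110, by 0.53, both with overlapping groups. Hspa8, the constitutive HSP70, read 14.28 to 14.54 in the controls and 14.34 to 14.49 in the exposed cortex, and the mitochondrial chaperonin genes Hspd1 and Hspe1 differed by 0.03 and 0.29. Hsp90aa1 differed by 0.09 ± 0.44. Without exposed replicate 3 the median of the list was 0.18 and 23 of 23 differences were above 0. Without control replicate 1 the median was 0.08 and 17 of 23 were above 0.

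**Figure D2:**
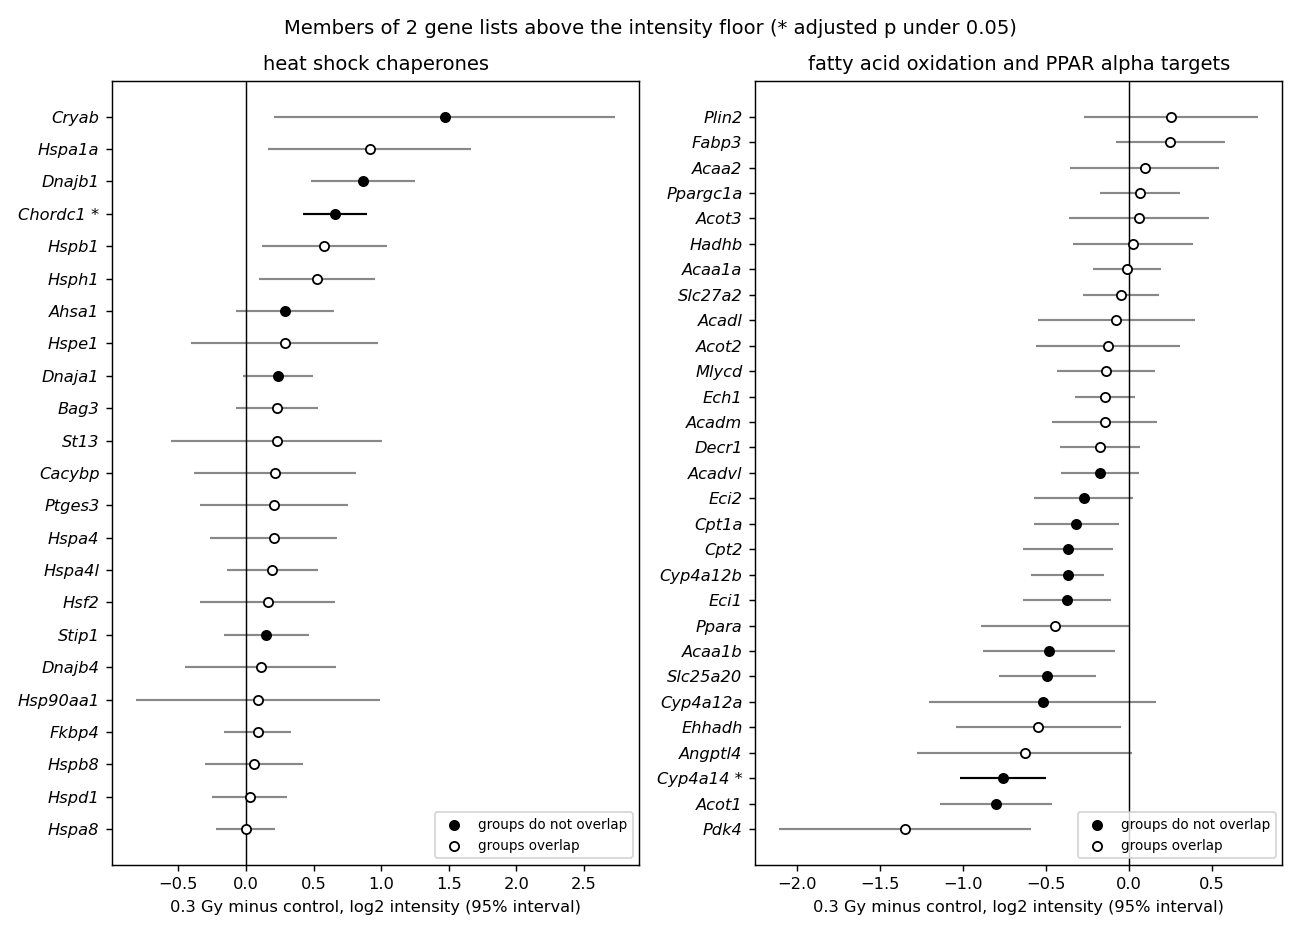
Difference, exposed minus control in log2 intensity, with its 95% interval, for each member above the floor of the heat shock chaperones (left) and of the fatty acid oxidation genes and PPAR alpha targets (right); filled points are genes whose 2 groups do not overlap, and an asterisk and black line mark an adjusted p under 0.05. The points of 22 of 23 chaperones lie to the right of 0 and those of 23 of 29 fatty acid genes to the left, and 1 gene of each list passed.

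Promoter sequences of the chaperones are shown because 22 of the 23 differences of that list lay above 0 (17 of 23 without control replicate 1). RefSeq promoter windows (GRCm38.p6) were found for 19 of the 23, and the 250 bases before each annotated start were searched, some genes having several starts. The 2-unit heat shock element, GAANNTTC or TTCNNGAA, both of which read the same on either strand, was in a window of 8 of these 19 genes and in 12.8% of all 32851 windows. A gene was counted if any of its windows matched, so here and below the share of single windows is not a like measure. The stricter 3-unit element, GAANNTTCNNGAA or TTCNNGAANNTTC, was in 2 of the 19 (Hspd1 and Hspe1, which share a promoter) and in 0.466% of all windows, and every 3-unit match contains 2-unit matches. The stretches below run 5′ to 3′ on the strand of the gene, lie upstream of its start, and carry the 2-unit matches in capitals. Chordc1 had no match in its window, and its bases are those next to the start.
Chordc1, chr9:18292157-18292266, plus strand: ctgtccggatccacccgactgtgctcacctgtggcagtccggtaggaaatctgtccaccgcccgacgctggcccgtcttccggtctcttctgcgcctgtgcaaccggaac
Hspa1a, chr17:34972202-34972311, minus strand: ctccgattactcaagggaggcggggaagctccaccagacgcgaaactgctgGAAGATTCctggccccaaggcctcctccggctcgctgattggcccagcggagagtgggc
Hspb1, chr5:135887761-135887870, plus strand: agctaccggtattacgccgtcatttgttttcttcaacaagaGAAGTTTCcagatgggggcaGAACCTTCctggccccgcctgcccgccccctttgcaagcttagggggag
Hsph1, chr5:149636337-149636446, minus strand: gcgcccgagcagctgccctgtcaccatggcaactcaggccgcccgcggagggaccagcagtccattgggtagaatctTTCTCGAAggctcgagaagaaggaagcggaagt
Hspe1, chr1:55088013-55088122, plus strand: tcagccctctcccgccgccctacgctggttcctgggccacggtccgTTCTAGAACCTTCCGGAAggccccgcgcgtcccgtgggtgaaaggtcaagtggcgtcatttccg
Hspe1, whose stretch holds 3 overlapping matches, differed by 0.29 with overlapping groups, and Chordc1, with 0 matches, was the only chaperone gene that passed. The groups also overlapped for Hspa1a, Hspb1 and Hsph1. Of the 6 chaperone genes whose groups did not overlap, Dnaja1 alone was among those with a match, and windows were not found for every gene of the list. A match is a description of letters, not of binding. For the fatty acid list, the PPAR element AGGTCANAGGTCA (or TGACCTNTGACCT on the other strand) was in 0 of the 23 genes with a window and in 0.0335% of all windows.

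Among 15 endoplasmic reticulum stress genes above the floor, which include chaperones of that compartment, 0 passed in either direction, 12 had a difference above 0, and the median was 0.18. Ddit3, the transcription factor CHOP, read 7.89, 7.80 and 7.76 in the controls and 8.38, 8.07 and 8.23 in the exposed cortex, a difference of 0.41 with groups that did not overlap and an adjusted p of 0.684. Hspa5, the main chaperone of the compartment, differed by 0.44 ± 0.42 and its groups overlapped. Chac1, a glutathione-degrading enzyme, ran the other way, at 7.94, 7.61 and 7.53 in the controls and 7.21, 7.44 and 7.42 in the exposed cortex.

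Genes known to respond to corticosteroids lay mostly below the controls. Of 12 above the floor 0 passed in either direction, 11 had a difference below 0 and the median was -0.25. Fkbp5, which encodes a co-chaperone of the glucocorticoid receptor and is a standard readout of the hormone, read 9.67, 9.61 and 11.26 in the controls and 8.69, 9.16 and 8.81 in the exposed cortex. The groups did not overlap, but control replicate 3 stood well above every other array. Its difference was -1.30 ± 0.28 with an adjusted p of 0.0932, and without control replicate 3 it was -0.76 with an adjusted p of 0.534. Sgk1, the kinase that raises sodium uptake, differed by -0.72 with overlapping groups, exposed replicate 2 lying above the lowest controls. Scnn1a, the alpha subunit of the epithelial sodium channel, differed by -0.50 and Errfi1, an inhibitor of the EGF receptor, by -0.48, each without overlap. The mean level of the 12 genes was 11.09, 11.20 and 11.52 on control replicates 1 to 3 and 10.74, 11.13 and 10.83 on the exposed arrays. Control replicate 3 was thus the highest array of this list as well as for Cyp4a14. The median of the list was -0.20 without control replicate 3 (9 of 12 differences below 0), -0.16 without exposed replicate 1 and -0.41 without exposed replicate 2.

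Core clock and clock output genes differed in both directions. In 4 of 15 every exposed array lay below every control array and in 1 above, against 5.37% and 4.54% of all genes. Of 15 above the floor 0 passed in either direction, 6 differences were above and 9 below 0, and the median of -0.17 became -0.01 without control replicate 3 and 0.03 without exposed replicate 3. Noct, a rhythmic phosphatase also named nocturnin, read 11.40, 11.85 and 12.55 in the controls and 10.46, 11.25 and 10.40 in the exposed cortex. The difference was -1.23 ± 0.31, the groups did not overlap and the adjusted p was 0.160, and the other probe of Noct gave -0.82. Per2, a repressor of the clock, differed by -0.25, and Rora, an activator of Arntl, by -0.48 (-0.06 on a probe below the floor), both without overlap. Bhlhe40, another repressor, was higher on every exposed array, by 0.27. The time of day of sampling is not in the labels.

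**Figure D3:**
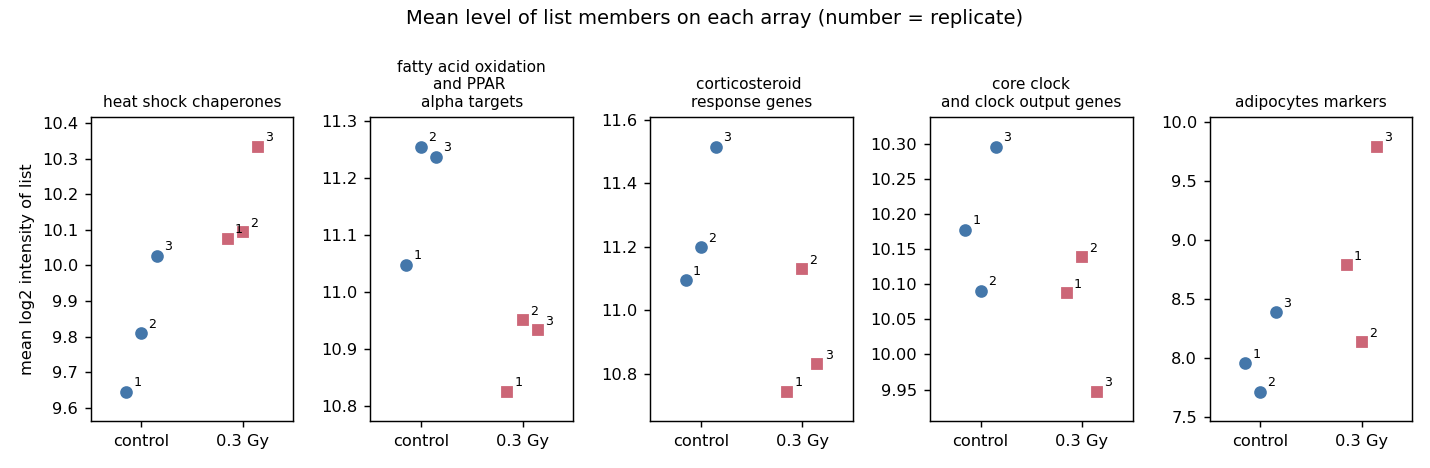
Mean log2 intensity of the members above the floor of 5 lists on each of the 3 control arrays (blue circles) and 3 exposed arrays (red squares), numbered by replicate; each panel has its own vertical axis, which does not start at 0. Control replicate 3 is the highest array of the corticosteroid and clock lists, and exposed replicate 3 of the heat shock and adipocyte lists.

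None of the remaining genes with the smallest p and groups that did not overlap passed. Tsc22d1, a transcription factor induced by TGF-beta, read 10.82, 11.22 and 11.69 in the controls and 9.70, 10.44 and 9.82 in the exposed cortex. Its difference was -1.26 ± 0.26 with an adjusted p of 0.0730. Another probe of the gene lay below the floor and differed by 0.01. Cirbp, the cold-inducible RNA-binding protein, read 8.54, 8.33 and 8.26 in the controls and 7.91, 7.78 and 7.65 in the exposed cortex, a difference of -0.60 ± 0.14 with an adjusted p of 0.145. Slco3a1 (-0.58), an organic anion transporter, Atxn7l2 (-0.51), Odf4 (-0.47) and Pcgf6 (-0.44) also lay lower on every exposed array, with adjusted p-values of 0.0932 to 0.152. Other probes gave -0.20 and, below the floor, -0.12 for Slco3a1, and 0.02, below the floor, for Odf4. Mov10, an RNA helicase, lay below the floor on all exposed arrays and was at least 1.07-fold lower.

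On the higher side, Palld, an actin-binding protein of stress fibres, read 9.14, 9.37 and 8.98 in the controls and 10.20, 9.89 and 9.82 in the exposed cortex. The groups were apart, and the difference of 0.81 ± 0.19 had an adjusted p of 0.136. Rbm12, an RNA-binding protein, read 8.25, 8.08 and 8.01 against 8.54, 8.58 and 8.61, a difference of 0.47 ± 0.10 with an adjusted p of 0.0932, and its 3 other probes gave 0.39, 0.30 and 0.19. Atf7ip, a cofactor of histone methylation, Insc, Armc6, Taf12, Creb3l2, LTO1, Lhfpl2 and Nmrk1 differed by 0.36 to 0.57 with adjusted p-values of 0.159 to 0.239. For Creb3l2 another probe below the floor gave -0.07, and for Taf12 the other probes gave 0.24 and 0.27. The largest differences among genes whose groups did not overlap included some that rested on few arrays. Cldn11, a tight junction gene, read 7.66, 7.25 and 7.73 against 9.51, 7.86 and 9.49, so that exposed replicate 2 was close to the controls. Cox8b, a cytochrome oxidase subunit of muscle and brown fat, read 8.13, 7.35 and 8.20 against 8.20, 8.34 and 11.22, so that exposed replicate 3 alone carried the difference of 1.36 ± 0.77. Cyp24a1, which degrades vitamin D, differed by -0.95 ± 0.60, and Depp1, a FOXO target, by -0.85 ± 0.34.

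Genes that radiation is known to induce in other settings showed no shared difference. Of 19 p53 targets above the floor 0 passed in either direction, 9 differences were above and 10 below 0, and the median was -0.0028. The differences ran from -0.64 to 0.48. In 1 of the 19 every exposed array lay above every control array and in 1 below, against 4.54% and 5.37% of all genes. Cdkn1a, the cell cycle inhibitor p21, read 7.44, 7.31 and 9.24 in the controls and 7.49, 7.92 and 7.70 in the exposed cortex, so that control replicate 3 alone stood out. Mdm2, the ubiquitin ligase of p53, read 10.00 to 10.15 in the controls and 10.00 to 10.14 in the exposed cortex. Pmaip1, the apoptosis gene NOXA, was the p53 target that was higher on every exposed array, at 7.86, 7.78 and 7.91 against 8.16, 8.29 and 8.53, a difference of 0.48 ± 0.14 with an adjusted p of 0.280; its other probe gave 0.21. Of 25 DNA repair genes 17 differences were below 0, with a median of -0.03 and a range of -0.22 to 0.12. None of the 18 apoptosis genes passed. Tnfrsf21, a death receptor, differed by -0.70 ± 0.18, with exposed replicate 1 within the range of the controls and an adjusted p of 0.190, and its other probe gave -0.24.

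Of all 8077 genes 2 (0.0248%) passed, so a count of 0 in a short list says little, here and elsewhere. No gene of the lists of inflammation and injury passed. Their medians were -0.0026 for 15 genes of MHC and antigen presentation, -0.05 for 12 interferon-stimulated genes, -0.13 for 12 chemokine, cytokine and inflammatory genes (9 of 12 differences below 0) and -0.02 for 9 tubular injury genes. Havcr1, the injury marker KIM-1, read 10.28, 8.27 and 9.21 against 7.91, 9.29 and 8.79, with wide overlap. Respiratory chain subunits had a median of 0.02 over 40 genes and NRF2 antioxidant genes 0.02 over 19, with 0 passing. Of 15 cholesterol synthesis genes 13 differences were above 0, with a median of 0.10. In 0 of the 15 did the groups separate, against 9.92% of all genes. Solute and organic ion transporters, 24 genes with a median of -0.06, included Slc7a8, an amino acid exchanger that was higher by 0.51 ± 0.18 without overlap (adjusted p 0.451). Lists of extracellular matrix and TGF-beta genes (19 above the floor, median 0.07), cell cycle genes (8, median -0.07), FOXO, insulin and fasting genes (14, median -0.05), apolipoproteins and liver secreted proteins (8, median 0.07) and renin, kallikrein and vasopressin genes (7, median -0.06) also held 0 genes that passed. Immediate early genes had a median of -0.14 over 14 genes, and Egr1 read 9.24, 9.62 and 10.91 against 9.09, 8.97 and 9.53.

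**Figure D4:**
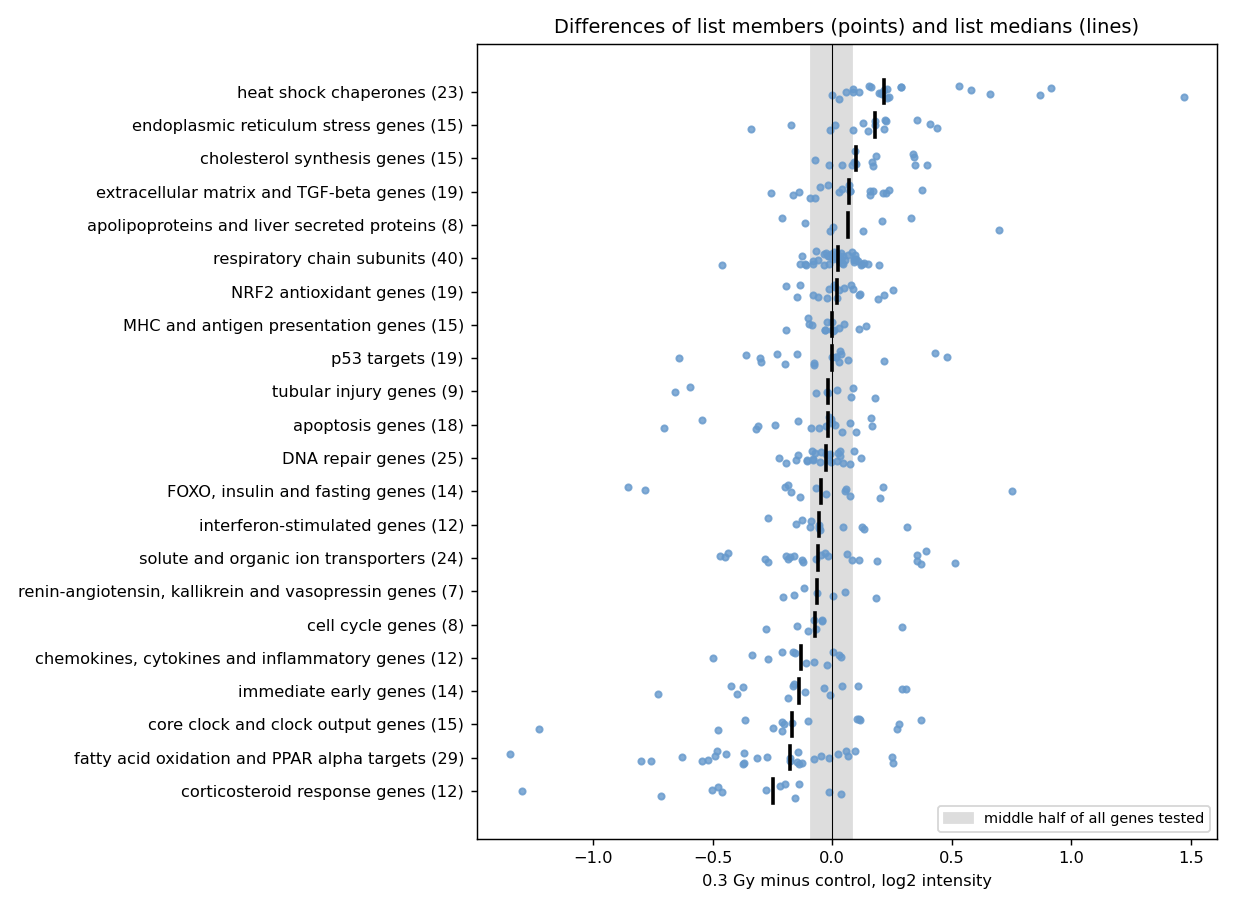
Differences, exposed minus control in log2 intensity, of the members above the floor of 22 gene lists (points, spread vertically at random for legibility), with the median of each list as a black line, the number of members in brackets and the 25th to 75th percentile of all genes tested as a grey band. The medians of the heat shock, endoplasmic reticulum and cholesterol lists lie to the right of the band, and those of the corticosteroid, fatty acid and clock lists among those to its left.

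The summed level of each list of cell type markers overlapped between the groups, and 0 markers passed. Of 8 proximal tubule markers 5 differences were above and 3 below 0, and the summed level, as log2 of the summed intensities, ran from 15.58 to 15.79 in the controls and from 15.64 to 15.87 in the exposed cortex. It was 10.55 to 10.86 against 10.57 to 10.79 for 7 macrophage markers, and 12.63 to 13.57 against 13.45 to 13.76 for 3 erythroid and blood markers, control replicate 1 being the lowest of the latter. None of the 6 lymphocyte markers measured (Cd3e, Cd3g, Cd8a, Cd79a, Cd79b and Ms4a1) reached the floor. Adipocyte markers were highest on exposed replicate 3. Adipoq, the gene of adiponectin, read 8.78, 8.49 and 9.66 in the controls and 9.91, 9.20 and 11.64 in the exposed cortex, and Cidec, a lipid droplet protein, 7.97, 7.68 and 8.45 against 8.85, 7.87 and 10.33. The groups overlapped for both genes, and exposed replicate 3 was the highest. Lep, the gene of leptin, was below the floor on every control array and at least 1.16-fold higher in the exposed cortex. The summed level of the 6 measured adipocyte markers ran from 10.05 to 10.72 in the controls and from 10.42 to 12.33 in the exposed cortex, and Plin1, Fabp4 and Retn did not reach the floor. Cox8b and Cryab were also highest on exposed replicate 3; the part of adipose tissue in these differences was not tested.

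The same dose was also read at 1.5 and 4.5 months in cortex. The controls at 1.5 months entered without replicate 3, the array that stood apart. Of the 24 genes with the smallest p among those whose groups did not overlap at 3 months (12 higher and 12 lower), 15 had the same sign at 1.5 months and 20 at 4.5 months, beside 50.2% and 56.8% of all 8077 genes. Chordc1 differed by -0.16 ± 0.13 at 1.5 months and by 0.44 ± 0.12 at 4.5 months in cortex. Its difference at 3 months exceeded that at 1.5 months by 0.82 ± 0.18, the smallest p of the named genes in that test, but the adjusted p was 0.526. Cyp4a14 differed by -0.10 ± 0.14 at 1.5 months and by -0.62 ± 0.13 at 4.5 months, and at 4.5 months it was 1 of 15 genes (0.186%) that passed, with an adjusted p of 0.0243, where 745 genes (9.22%) had an unadjusted p under 0.05. Its arrays at 4.5 months read 13.84, 14.06 and 13.94 in the controls and 13.32, 13.46 and 13.21 at 0.3 Gy, again without overlap. Dnajb1, at 0.86 ± 0.19, passed at 4.5 months as well (adjusted p 0.0477). In contrast, Fkbp5, Tsc22d1, Noct, Cirbp and Pex11a differed at 4.5 months by -0.14, -0.04, 0.01, 0.15 and 0.06. The tests of 3 months against 4.5 months gave -1.15 ± 0.40 for Fkbp5 (adjusted p 0.549) and -0.74 ± 0.20 for Cirbp (adjusted p 0.340). Cryab and Adipoq differed by -1.92 and -2.03 at 4.5 months, opposite in sign to 3 months, and the tests of that change gave 3.39 ± 0.87 (adjusted p 0.340) and 3.31 ± 1.19 (adjusted p 0.577).

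Over all genes 0 of 8077 passed for 3 months against 1.5 months, with 348 (4.31%) at an unadjusted p under 0.05, and 0 for 3 months against 4.5 months, with 466 (5.77%). At 1.5 months 0 genes passed against control, with 242 (3.00%) at an unadjusted p under 0.05. The test of 3 against 1.5 months was also fitted with control replicate 3 of 1.5 months. Again 0 genes passed, and 709 had an unadjusted p under 0.05. The median of the heat shock chaperones was -0.13 at 1.5 months and 0.12 at 4.5 months, and that of the fatty acid list -0.07 and -0.13, beside 0.01 and 0.02 for all genes.

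In medulla at 3 months 22 of the same 24 genes had the sign they had in cortex, beside 54.8% of all genes. Same-numbered cortex and medulla arrays deviated together in the controls (correlations of 0.675, 0.350 and 0.630) and less so at 0.3 Gy (0.082, 0.007 and 0.278), and the labels do not say whether they came from the same mice. The part of this shared deviation in the count of 22 was not tested. Chordc1 read 10.30, 10.39 and 10.76 in medulla controls and 11.06, 11.25 and 11.17 at 0.3 Gy, and it was 1 of 19 genes (0.235%) that passed there (746, or 9.24%, at an unadjusted p under 0.05), at 0.68 ± 0.12 with an adjusted p of 0.00385. Fkbp5 and Pex11a also fell in medulla, by 1.39 and 0.64, with adjusted p-values of 0.0365 and 0.0397. Cyp4a14 differed by -0.42 ± 0.15 (adjusted p 0.270). The median of the heat shock chaperones in medulla was 0.06 and that of the fatty acid list -0.17, beside 0.01 for all genes. The test of cortex against medulla found 0 of 8077 genes, with 301 (3.73%) at an unadjusted p under 0.05, and for Chordc1 the tissues differed by -0.02 ± 0.17 (adjusted p 1.00). Chac1 passed in medulla, where it was higher by 0.71, and it differed by -0.34 in cortex. With the replicate number shared by the tissues as a block in the fit, Chac1 was the 1 gene that passed for the difference between tissues, at -1.05 ± 0.18 with an adjusted p of 0.0221.

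**Figure D5:**
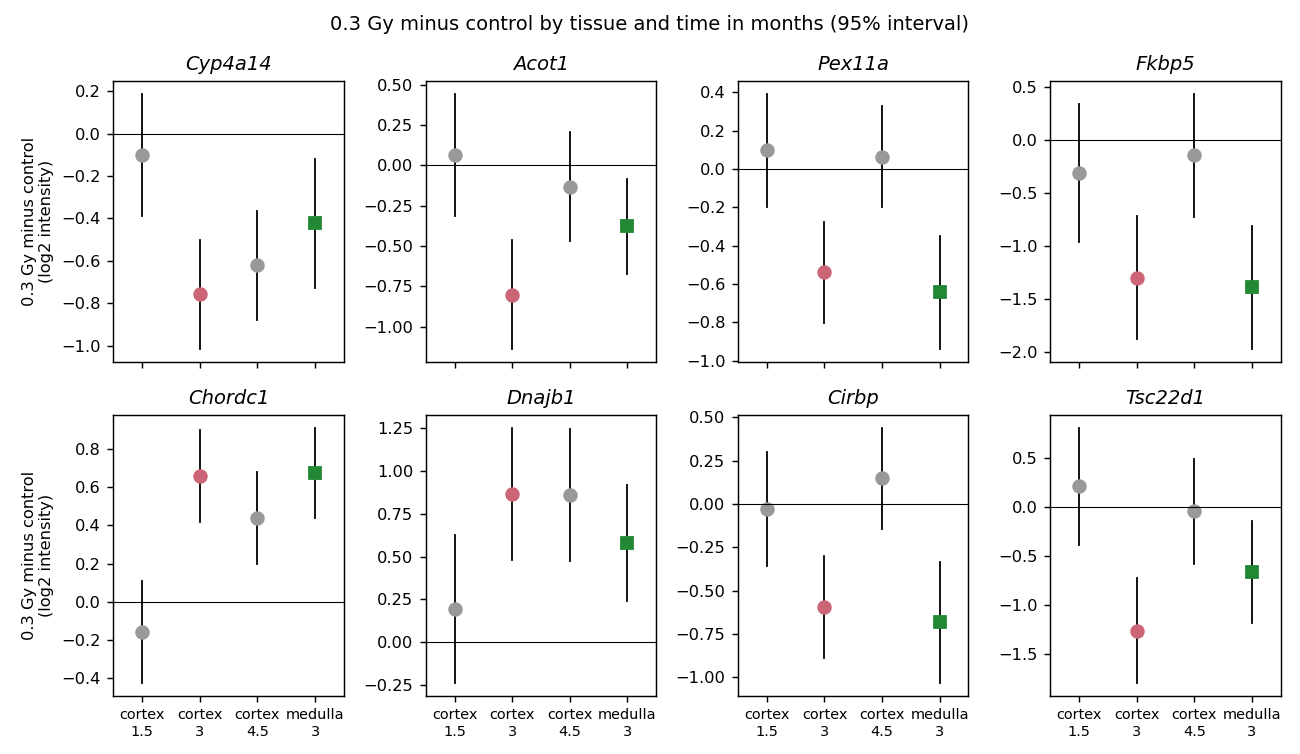
Difference, 0.3 Gy minus control in log2 intensity with its 95% interval, for 8 genes in cortex at 1.5, 3 and 4.5 months (circles, 3 months in red) and in medulla at 3 months (green squares); each panel has its own vertical axis. Cyp4a14, Chordc1 and Dnajb1 keep their direction at 4.5 months, whereas Acot1, Pex11a, Fkbp5, Cirbp and Tsc22d1 lie near 0 there.

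Higher doses at 3 months shared their control arrays with the 0.3 Gy group, so the differences are set side by side. Chordc1 differed from control by 0.66 at 0.3 Gy, 0.73 at 3 Gy and 0.61 at 10 Gy, and it was 1 of 4 genes (0.0495%) that passed at 3 Gy (adjusted p 0.00742), where 1048 (13.0%) had an unadjusted p under 0.05. Cyp4a14 differed by -0.76, -0.51 and -0.41 at the 3 doses. Noct differed by -1.23, -1.62 and -0.67 and passed at 3 Gy (adjusted p 0.0249), whereas 0 genes passed at 10 Gy, with 277 (3.43%) at an unadjusted p under 0.05. Fkbp5 differed by -1.30, -1.20 and -0.18, Pex11a by -0.54, -0.47 and 0.03, and Dnajb1 by 0.87, 0.89 and 0.25. The median of the heat shock chaperones was 0.22 at 0.3 Gy, 0.07 at 3 Gy and 0.09 at 10 Gy. That of the fatty acid list was -0.18, -0.25 and -0.05, beside -0.0018, -0.0017 and 0.0006 for all genes.

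Exposed groups were also tested against each other. Between 3 Gy and 0.3 Gy limma called 0 of 8077 genes, while 708 (8.77%) had an unadjusted p under 0.05. For Chordc1 the difference, 3 Gy minus 0.3 Gy, was 0.07 ± 0.12 and for Cyp4a14 0.25 ± 0.13. Between 10 Gy and 0.3 Gy 3 genes (0.0371%) passed, and 442 (5.47%) had an unadjusted p under 0.05. Naa80, which acetylates the amino terminus of actin, read 8.30, 8.29 and 8.25 at 0.3 Gy and 8.99, 8.93 and 8.68 at 10 Gy. It was higher on every 10 Gy array, by 0.59 ± 0.08 with an adjusted p of 0.00085, and its controls, at 8.54, 8.52 and 8.62, lay between the doses. Hyal2, a hyaluronidase, was higher at 10 Gy by 0.51 ± 0.10 (adjusted p 0.0465), with the 3 arrays at 11.96 to 12.04 against 11.26 to 11.61. Atf7ip was lower at 10 Gy by -0.59 ± 0.11 (adjusted p 0.0259), at 8.29, 8.23 and 8.19 against 8.90, 8.64 and 8.92. Pex11a (0.57 ± 0.13, adjusted p 0.0867) and Fkbp5 (1.12 ± 0.28, adjusted p 0.190) lay higher at 10 Gy without passing. Without 0.3 Gy replicate 1, or without replicate 3, 1 gene passed in place of 3, and with all 36 cortex arrays 0 passed.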

How the data were processed

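Per the labels' protocols, RNA was isolated with a lipid tissue kit, its quality was assessed by Bioanalyzer, and biotin labelling followed Illumina's standard procedure. The deposited series table holds intensity values on a linear scale; the sorted columns of the 72 arrays differ by at most 1.26, as after quantile normalisation. The software and background correction are not given in the sources used here. Of 144 columns of a deposited table from before normalisation, none could be matched to a sample, so that table was not used.

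Log2 values were taken with 0 added. Of 25697 probes, 23978 had 1 gene symbol, 0 several and 1719 none. Group means over 35 cortex arrays (71 arrays for the comparison with medulla) were fitted with limma 3.58.1 (lmFit, eBayes with a trend) in R 4.3.3, with two-sided p-values adjusted by Benjamini-Hochberg over 8077 genes at a threshold of 0.05. Of these genes, 15 were below the floor on every control array and 10 on every exposed array. The procedure was tested on simulated data. Python 3.11.15 and matplotlib 3.10.9 drew the figures.

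Named genes were those that passed; of genes whose groups did not overlap, the 12 of smallest p in each direction (1 of the 12 lower is not reported here) and the 5 largest differences; up to 4 members of each list with the largest differences; and markers. Other named list members were chosen after their values were seen. Genes, lists and tests were chosen with earlier results of these data known. Alternatives were other sets of arrays, array weights, cyclic loess, normexp with an offset of 50, no floor, a floor of 200, the mean of all probes, no trend, the replicate number as a block, and each array left out in turn.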

Additional observations from a re-analysis of the deposited data

How the results depend on the processing

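The count of 2 genes at 0.3 Gy was 0 with all 36 cortex arrays, where the median standard error was 0.16 against 0.12, and 0 with only the 6 arrays compared, where fewer samples entered the spread; the adjusted p of both genes was then 1.00 and 0.593. It ran from 0 to 8 when single arrays were left out: 4 without control replicate 1, 1 without control replicate 3 (Chordc1, adjusted p 0.00604), 8 without exposed replicate 2 and 0 without exposed replicate 3. The other settings gave 2 or 3 genes. The replicate number as a block gave 2 genes, with an adjusted p of 0.0465 for both. Deviations of same-numbered control and exposed arrays correlated at 0.199, -0.001 and -0.247. Those of differently numbered arrays ran from -0.312 to 0.346. With 3 arrays per group these correlations cannot decide whether the numbers pair the arrays. For 10 against 0.3 Gy the 3 genes became 0 with all arrays and 1 with the replicate block (Naa80). With single 0.3 Gy arrays left out 1 to 3 passed, and no 10 Gy array was left out. The counts of 0 for 3 against 4.5 months and for 3 against 0.3 Gy ran from 0 to 1 with single arrays left out (1 in each without exposed replicate 2). The count of 0 for cortex against medulla became 1 with the replicate number shared by the tissues as a block, an alternative chosen after seeing the data. The cause of these changes was not tested. Over 43 named genes and up to 16 alternatives each, 0 differences reversed, 9 lost and 10 gained a pass. Most of the 43 were chosen for groups that did not overlap, so leaving out a single array could not reverse their sign. Several other settings changed the spread but not the difference. The count of 0 reversals therefore says little about how stable the signs are.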
